A study of Homo sapiens with 2 samples.

Results

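The transferrin receptor gene TFRC and 8 genes that handle iron inside the cell were followed with and without doxorubicin in H9, a cultured human line of malignant T cells. The genes were taken by symbol from a count table of 19220 genes, and all 9 were found: TFRC, STEAP3, FTH1, FTL, PCBP1, NCOA4, ACO1, IREB2 and FBXL5. TFRC was selected on its high ratio between these same libraries, so that ratio is a description and supports nothing by itself. Poly(A) RNA was sequenced from 1 library of untreated wild-type H9 cells (doxorubicin for 0 h) and 1 library of wild-type H9 cells kept for 6 h with 0.05 µM doxorubicin, a cancer drug of the anthracycline class that poisons topoisomerase II. Both cultures grew in RPMI medium with fetal bovine serum, glutamine and antibiotics, and the design asks which genes and pathways differ with the drug. There is no second library of either condition, so no test was possible, no value has a replicate, and every interval given is a 95% interval of counting error only. In bulk RNA, fewer cells with a transcript and less of it per cell cannot be told apart.

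Iron enters most dividing cells bound to transferrin. The transferrin receptor carries it into endosomes, where STEAP reductases convert it to the ferrous form and SLC11A2 (DMT1) passes it to the cytosol. Ferritin, a shell of heavy (FTH1) and light (FTL) subunits, stores the surplus, which PCBP1 delivers as a chaperone and NCOA4 releases by carrying ferritin to the lysosome. The iron regulatory proteins, encoded by ACO1 and IREB2, bind hairpins called iron-responsive elements when iron is scarce: in the 3' untranslated region of TFRC mRNA this binding protects the message from decay, and in the 5' untranslated region of ferritin mRNAs it blocks translation. FBXL5 is the subunit of a ubiquitin ligase that removes the iron regulatory proteins when iron is plentiful.

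The hairpins are shown because they set TFRC and the ferritin genes apart by the end of the message that carries them. They were read from GENCODE release 29 transcripts (GRCh38, sense strand) as the letters CNNNNNCAGTGN, in which the 5 bases before the loop pair with the 5 after it and at least 3 of the 5 pairs below the C also form, with G-T pairs allowed. The capitals mark the 6-base loop.
TFRC element 1: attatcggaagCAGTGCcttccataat
TFRC element 2: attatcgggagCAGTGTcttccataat
TFRC element 3: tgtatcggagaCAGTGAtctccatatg
TFRC element 4: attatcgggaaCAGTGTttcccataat
FTH1 element: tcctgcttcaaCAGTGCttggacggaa
FTL element: tcttgcttcaaCAGTGTttggacggaa
SLC40A1 element: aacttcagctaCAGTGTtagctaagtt

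The search misses hairpins that depart from this pattern. The 4 TFRC elements that met it lay in the last of 19 exons, on the minus strand at chr3:196050980-196051006, chr3:196050576-196050602, chr3:196050511-196050537 and chr3:196050464-196050490. They began 936, 1340, 1405 and 1452 bases into a 3' untranslated region of 2658 bases. Elements 1 and 2 shared 25 of 27 bases, while elements 2 and 3 shared 17. The FTH1 element (chr11:61967575-61967601, minus strand) and the FTL element (chr19:48965336-48965362, plus strand) lay in exon 1 of their genes, in the 5' untranslated region, and shared 25 of 27 bases. The element of SLC40A1, which encodes the iron exporter ferroportin, was also in exon 1 (chr2:189580662-189580688, minus strand). By the same search 27 of 18463 genes (0.146%) held such a match in the 3' untranslated region. In the 5' untranslated region it was 9 of 18212 (0.049%), and in the coding region 35 of 18957 (0.185%), the largest share. TFRC was the only gene of the 18463 with more than 1 in the 3' region. A match is a description of the letters, and these libraries do not measure binding.

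TFRC had 3150 counts without the drug and 11597 with it. Scaled by library size with edgeR's TMM method, these were 95.6 CPM (92.3 to 99.0) and 226 CPM (222 to 230), where CPM is the count per 1000000 counts of the scaled library. The treated library was the higher by 2.36-fold (2.27 to 2.46), a log2 ratio of 1.24, and the counting intervals did not overlap. Among the 11244 genes with at least 100 counts over both libraries, called measured here, it had rank 60 from the highest ratio. Among the 1206 genes with at least as many counts as TFRC it had rank 3. No stretch of 50 bases sampled from the TFRC transcript was shared with another gene, and none of its exons overlapped another protein-coding gene in the annotation. TFR2, a second transferrin receptor, had 322 and 484 counts, a 0.964-fold ratio (0.836 to 1.11) whose interval includes 1.

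STEAP3, the endosomal ferrireductase best known from red cell precursors, had 4 counts in each library. Its ratio of 0.641 has an interval from 0.119 to 3.44, so no difference within that range was detectable at this depth, and STEAP3 was not counted as measured. STEAP2 and STEAP4 had no counts in either library, where 0 counts allow a level of up to 0.0911 CPM untreated and 0.0584 CPM treated, and STEAP1 had 5 counts in each; these 3 were named after their values were seen. SLC11A2 had 1055 and 1730 counts, a ratio of 1.05 (0.974 to 1.14).

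Both ferritin subunits were lower in the treated library by less than 1.5-fold. FTH1 went from 16879 to 21447 counts, which is 512 CPM (505 to 520) untreated and 418 (412 to 423) treated, a 1.23-fold lower level (1.203 to 1.252). FTL, with 11820 and 12578 counts, was at 359 (352 to 365) and 245 (241 to 249), 1.47-fold lower (1.429 to 1.503). Neither pair of counting intervals overlapped, but both values carry a limit of counting: 41.7% of the FTH1 stretches and 20.6% of the FTL stretches recur in other annotated genes, for FTH1 in 14 genes that include its processed pseudogenes. The exons of FTH1 are also overlapped over 71.6% of their length by a model of BEST1, which had 27 and 33 counts.

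The ratio of 2 genes within a library does not depend on library scaling. Per base of transcript, FTH1 and FTL stood at 1.02 to 1 (0.996 to 1.04) untreated and at 1.22 to 1 (1.192 to 1.245) treated, a change of 1.19-fold. TFRC stood at 0.0449 of FTH1 (0.0432 to 0.0466) untreated and at 0.130 (0.127 to 0.133) treated, a change of 2.90-fold. Against FTL the change was 3.46-fold. These changes do depend on the length adjustments described below. The 2 changes of TFRC were 2.01-fold and 2.23-fold with the fit on length and GC content, and 1.90-fold and 2.01-fold with lowess on transcript length. The change of FTH1 against FTL was 1.11-fold with the fit and 1.06-fold with lowess.

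PCBP1, from a gene with a single exon, had 15736 and 17089 counts, or 478 CPM (470 to 485) untreated and 333 (328 to 338) treated. It was 1.44-fold lower (1.405 to 1.467), near FTL in size. NCOA4, the ferritin receptor for autophagy, had 9822 and 17225 counts, at 298 (292 to 304) and 335 (330 to 340) CPM. Its treated level was 1.12-fold that of the untreated library (1.097 to 1.153), so the storage genes did not share a direction.

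Per base of transcript the regulators, IREB2, ACO1 and FBXL5, were below TFRC and both ferritin subunits in each library. IREB2, which encodes iron regulatory protein 2, had 3254 and 7624 counts, at 98.8 CPM (95.4 to 102) and 148 (145 to 152). It was 1.503-fold higher (1.442 to 1.566), at the edge of the 1.5-fold limit used below. ACO1, whose product is cytosolic aconitase when it holds an iron-sulfur cluster and iron regulatory protein 1 when it does not, had 679 and 1215 counts, at 20.6 (19.1 to 22.2) and 23.7 (22.34 to 25.02). Its ratio was 1.15 (1.04 to 1.26). FBXL5 had 1496 and 2014 counts, at 45.4 (43.1 to 47.8) and 39.2 (37.5 to 41.0), 1.16-fold lower (1.08 to 1.24). Per base of transcript IREB2 exceeded ACO1 by 5.63 to 1 (5.18 to 6.13) untreated and 7.37 to 1 (6.94 to 7.84) treated. The change was 1.31-fold, or 1.49-fold with the fit on length and GC content and 1.35-fold with lowess. Both ratios rest on a single annotated transcript per gene, for ACO1 of 7466 bases with a 3' untranslated region of 4658. Which transcript ends these cells use was not measured, and the intervals do not cover it.

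**Figure D1:**
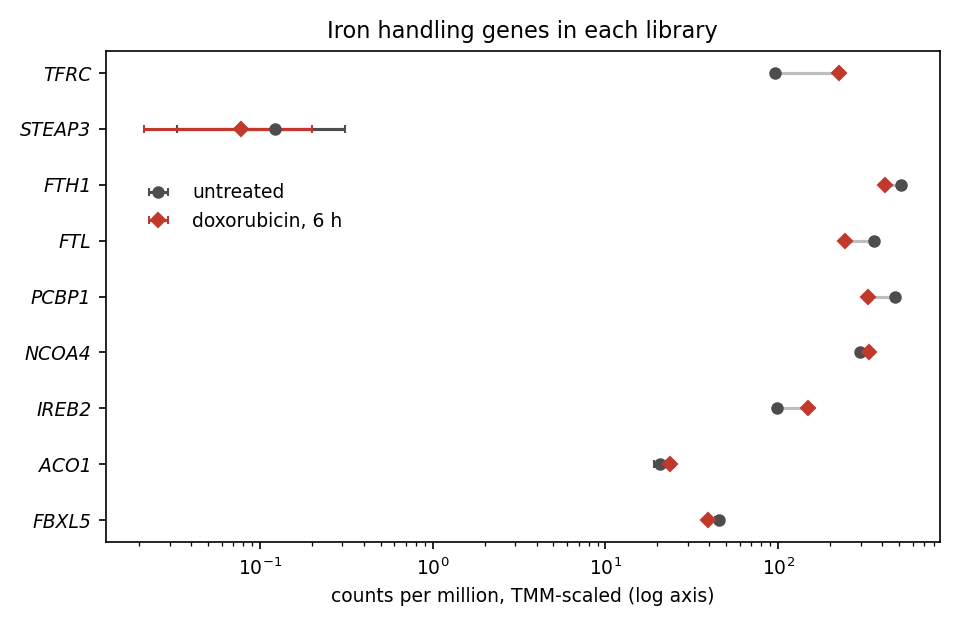
CPM (TMM-scaled, log axis) of the 9 iron handling genes in the untreated library (circles) and the doxorubicin library (diamonds), with bars for the 95% Poisson interval of each count, which cover counting error only. TFRC moves from 95.6 to 226, and STEAP3, with 4 counts in each library, lies far below the rest.

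Levels of different genes are compared per length, as CPM per kilobase of the longest RefSeq-paired transcript. In untreated cells FTH1 (417) and FTL (409) led and did not differ beyond counting error. PCBP1 (273) and NCOA4 (84.0) followed, then TFRC (18.7), IREB2 (15.5), FBXL5 (13.4) and ACO1 (2.76), with STEAP3 last at 0.0285. The treated library kept this order, with FTH1 at 340, FTL at 279, PCBP1 at 190, NCOA4 at 94.5, TFRC at 44.2, IREB2 at 23.4, FBXL5 at 11.6 and ACO1 at 3.17.

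A rule of size stands in for a test: a gene counts as higher or lower when its ratio is at least 1.5-fold and its counting interval excludes 1. By this rule 2 of the 8 measured members were higher, TFRC and IREB2, and 0 were lower. Over all 11244 measured genes 7.26% were higher and 9.57% lower. The members' median log2 ratio was -0.02, beside 0.007 for all measured genes. The count of 2 includes TFRC, which was chosen for its ratio, and IREB2, which falls to a log2 ratio of 0.58 and out of the rule with upper quartile scaling.

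The ratio went with transcript length over the whole table, and the members span that range. The measured genes were split into 5 groups of equal size by length. Among the 2241 genes with the shortest transcripts the median log2 ratio was -0.40 and 30.7% were lower by the size rule, while among the 2242 with the longest it was 0.28 and 18.2% were higher. FTL (878 bases), FTH1 (1229) and PCBP1 (1750) belong to the shortest group, and IREB2 (6354) and ACO1 (7466) to the longest. TFRC, with 5111 bases, is in the group next to the longest, where the median was 0.14 and 7.72% were higher.

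**Figure D2:**
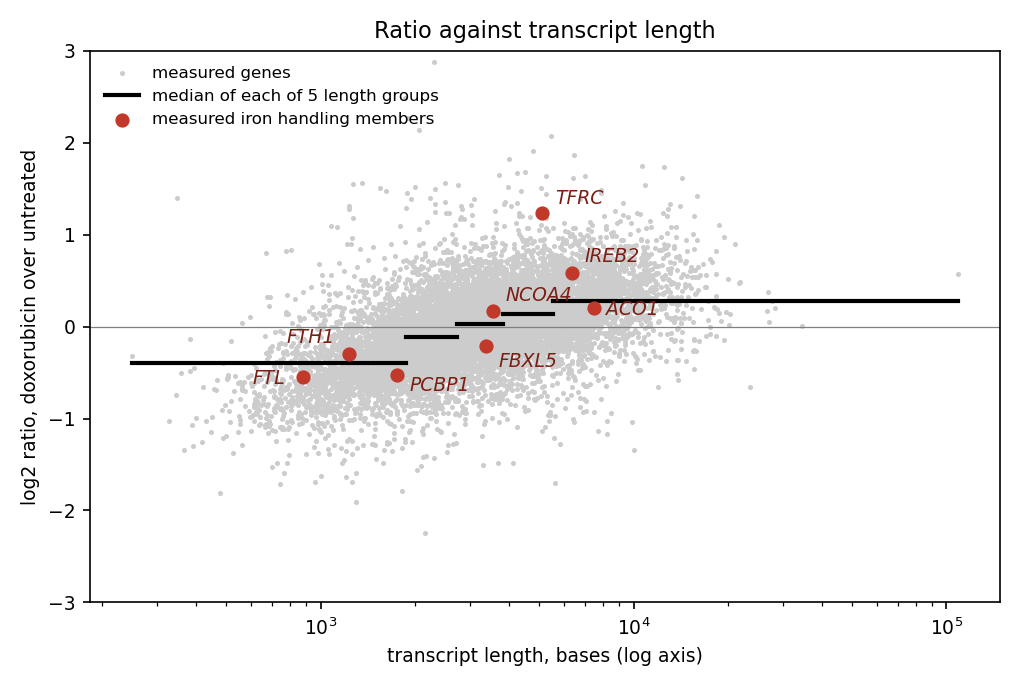
Log2 ratio of doxorubicin over untreated (vertical) against transcript length in bases (log axis) for 11206 measured genes with a length (grey), with the median of each of 5 length groups (black lines) and the 8 measured members (red). FTH1, FTL and ACO1 lie nearer the median of their length group than TFRC, which lies at 1.24 where the median is 0.14.

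After subtraction of a spline fit on transcript length, coding length and GC content over all measured genes, TFRC was at a log2 ratio of 1.07 (1.01 to 1.13). It was then the only member past the size rule, beside 4.17% of all genes higher and 3.56% lower. IREB2 was at 0.43 (0.37 to 0.49), below the size limit. The ferritin subunits came close to 0, with FTH1 at 0.06 (0.03 to 0.09) and FTL at -0.09 (-0.12 to -0.05), so FTH1 changed sign. ACO1 also changed sign, to -0.15 (-0.28 to -0.008). PCBP1 stayed at -0.43 (-0.46 to -0.40), FBXL5 at -0.23 (-0.33 to -0.13) and NCOA4 at 0.08 (0.05 to 0.12). Adjusted for transcript length alone with a lowess curve, TFRC was at 1.06 and PCBP1 at -0.28, while FTL was at 0.05, also of the opposite sign. The part of length in these values was measured only through such fits, and its source was not tested.

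**Figure D3:**
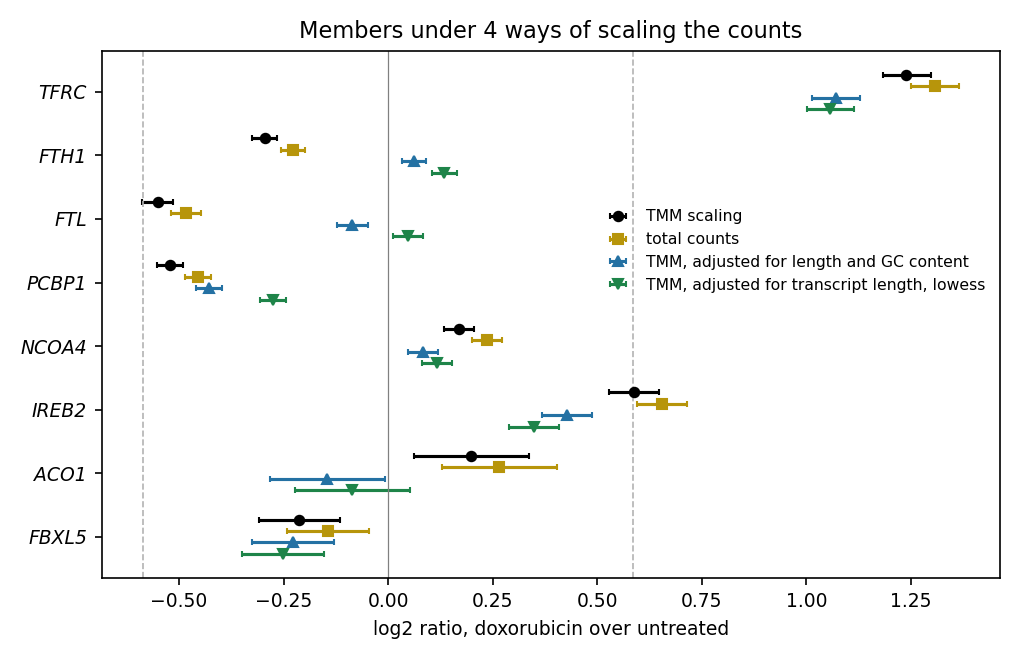
Log2 ratio of doxorubicin over untreated for the 8 measured members under TMM scaling, scaling by total counts, and TMM with an adjustment for length and GC content or for transcript length alone. Bars are 95% counting intervals, dashed lines the 1.5-fold limit; TFRC lies between 1.06 and 1.31 in all 4, and FTH1, FTL and ACO1 lie on both sides of 0.

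The wider iron pathway was described with 10 lists that hold 121 genes, of which 101 were measured. In these lists 8 genes were higher (7.92%) and 11 lower (10.9%), close to the 7.26% and 9.57% of all measured genes. The 8 include TFRC, which was selected on its ratio. Without the members 6 of 93 were higher (6.45%) and 11 lower (11.8%). Of the 11 lower genes 8 were among the 30 list genes in the shortest length group, where 30.7% of all 2241 genes were lower. With total-count scaling the split was 10 higher and 8 lower, beside 1084 and 852 over all genes in place of 816 and 1076. After the adjustment for length and GC content 3 of the 101 were higher, TFRC, RC3H2 and IBA57, and 1 was lower, FDX1. Over all genes that adjustment left 4.17% higher and 3.56% lower.

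Uptake and trafficking genes were mostly neither higher nor lower, as were 9352 of all 11244 measured genes, with 7.26% higher and 9.57% lower. In the uptake and reduction list 2 of 7 measured genes were higher, TFRC and SLC39A14. Because TFRC was selected on its ratio, its place in that count supports nothing. SLC39A14, a zinc transporter that also carries iron, was 1.51-fold higher (1.40 to 1.64) but at a log2 ratio of 0.36 after adjustment. In the list of genes that move the receptor through clathrin-coated pits and endosomes, 1 of 13 was higher. This was AP2B1, a subunit of the AP-2 adaptor, with 7825 and 19216 counts, 1.57-fold higher (1.53 to 1.62) and at 0.34 after adjustment.

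In the storage list 0 of 9 measured genes passed the rule in either direction, beside 7.26% higher and 9.57% lower over all measured genes. PCBP2, a chaperone related to PCBP1, had the most counts of this list, 20408 and 29378, a ratio of 0.923 (0.907 to 0.940). Another gene overlaps 48.5% of the exon length of PCBP2. Among the iron regulatory proteins and the genes of their turnover, IREB2 was higher and RBX1, the RING subunit of cullin ligases, was 1.53-fold lower (1.44 to 1.62), 2 of 8. RBX1 was at a log2 ratio of -0.54 with total-count scaling and -0.12 after adjustment, within the size limit both times. CUL1, the scaffold of the FBXL5 ligase, was at 1.12-fold (1.08 to 1.16). In the export and hepcidin list only SLC40A1 and FLVCR1 were measured, and neither passed the rule. SLC40A1 had 261 and 474 counts, a ratio of 1.16 (0.999 to 1.36), and FLVCR1, a heme and choline transporter, was at 1.30-fold (1.19 to 1.43).

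Of 9 measured mRNAs known to carry an iron-responsive element, 2 were higher, TFRC and EPAS1, and 0 lower, with a median log2 ratio of 0.22, beside 7.26% higher over all measured genes. TFRC was selected on its ratio and adds no support to that count. With the length and GC fit 1 was higher, TFRC, beside 4.17% of all genes, and the median was 0.09. EPAS1, which encodes the hypoxia factor HIF-2 alpha, had 520 and 1232 counts, 1.52-fold higher (1.37 to 1.69) and at 0.26 after adjustment. Factors that act on TFRC mRNA or its transcription held 1 higher gene of 9, RC3H2, which encodes the RNA-binding protein Roquin-2. RC3H2 had 297 and 1173 counts, 2.53-fold higher (2.23 to 2.89), and was at 1.12 (0.93 to 1.31) after adjustment. ZC3H12A, the endonuclease Regnase-1, which cleaves TFRC mRNA, had 713 and 1005 counts, a ratio of 0.904 (0.820 to 0.996). MYC had 17052 and 34272 counts, a ratio of 1.29 (1.27 to 1.31), and HIF1A was at 1.07 (1.034 to 1.104).

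Genes of mitochondrial iron use were more often lower than higher before adjustment. In the list of mitochondrial iron import and iron-sulfur cluster assembly, 6 of 24 measured genes were lower and 1 was higher, beside 9.57% lower and 7.26% higher over all measured genes. With the length and GC fit 1 was lower and 1 higher, beside 3.56% and 4.17% of all genes. The median log2 ratio of the list went from -0.30 to -0.09. BOLA3, which helps pass clusters to target enzymes, went from 1150 to 861 counts and was 2.08-fold lower (1.90 to 2.28), but its transcript of 639 bases put it at -0.41 (-0.54 to -0.28) after adjustment. FDX1, a ferredoxin, had 1165 and 997 counts and was 1.82-fold lower (1.67 to 1.98), at -0.66 (-0.79 to -0.54) after adjustment. ISCA2, a late-acting assembly factor, was 1.69-fold lower (1.52 to 1.88). Its log2 ratio was -0.48 (-0.64 to -0.33) with the length and GC fit, within the size limit. With lowess it was -0.70 (-0.85 to -0.55), still past the rule. IBA57, which acts with ISCA2, had 154 and 454 counts, 1.89-fold higher (1.57 to 2.28), and remained past the rule after adjustment at 0.59 (0.33 to 0.87). HSPA9, the mitochondrial HSP70 chaperone and the most abundant of the list by counts, was at a ratio of 0.877 (0.861 to 0.894).

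In cytosolic cluster assembly 2 of 10 measured genes were lower, beside 9.57% over all measured genes. These were FAM96B at 1.82-fold (1.73 to 1.92) and FAM96A at 1.58-fold (1.49 to 1.67), both components of the targeting step. Neither passed the rule after adjustment. GLRX3, a glutaredoxin of the same pathway, was at 0.835-fold (0.809 to 0.862). Among heme genes 1 of 18 was higher and 2 were lower, beside 7.26% higher and 9.57% lower over all measured genes. FLVCR2, a transporter related to FLVCR1, was 1.64-fold higher (1.44 to 1.88), TMEM14C, needed for porphyrin entry into mitochondria, was 1.66-fold lower (1.60 to 1.72), and HEBP1, a heme-binding protein, was 1.58-fold lower (1.30 to 1.92). None of these 3 passed the rule with the length and GC fit, with FLVCR2 at a log2 ratio of 0.52, TMEM14C at -0.27 and HEBP1 at -0.30. With the lowess curve on transcript length FLVCR2 still passed, at 0.66 (0.47 to 0.85), and the other two did not.

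**Figure D4:**
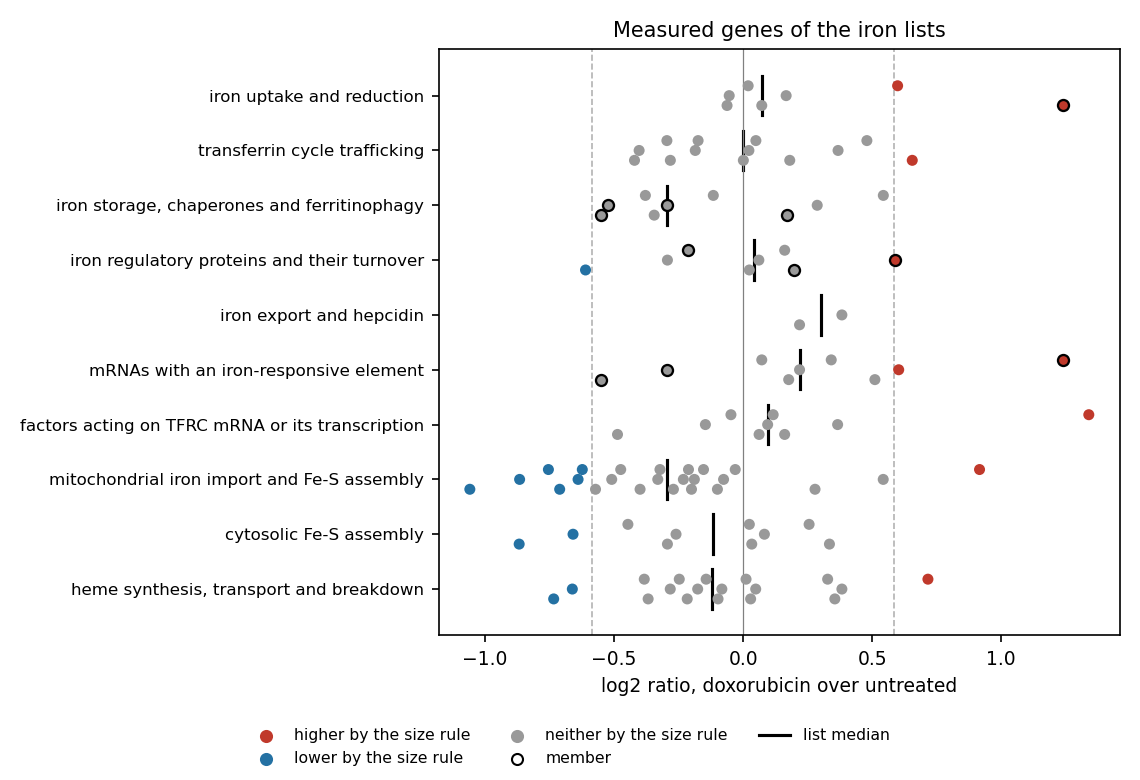
Log2 ratio of doxorubicin over untreated for each measured gene of the 10 iron lists, with list medians as black bars, the 1.5-fold limits dashed and members outlined; a gene in 2 lists is drawn in both. TFRC (1.24) and RC3H2 (1.34) stand to the right, and 6 of 24 genes of mitochondrial iron import and cluster assembly lie past the lower limit.

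With 2 libraries a pattern is a single ratio, so likeness to TFRC was measured as the difference in log2 ratio among the 2461 genes whose summed counts were within 2-fold of those of TFRC. The nearest were PIGS, a subunit of the GPI transamidase, at 2.25-fold higher (2.15 to 2.36), MAT2A, which makes S-adenosylmethionine, at 2.48-fold (2.39 to 2.58), IGF2R, the cation-independent mannose 6-phosphate receptor, at 2.48-fold (2.41 to 2.56), and SLC29A1, an equilibrative nucleoside transporter, at 2.53-fold (2.42 to 2.64). These differed from TFRC by -0.07, 0.07, 0.07 and 0.10 on the log2 scale. After adjustment for length and GC content they were at 1.05, 1.30, 0.73 and 1.31, beside 1.07 for TFRC.

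Library totals were 33730703 counts untreated and 50174434 treated, a depth ratio of 1.49. Of 12 T cell markers 9 were measured, with sums of 1286 and 1335 CPM, while CD2, CD7 and CD28 had between 0 and 13 counts. Of 7 erythroid markers 0 were measured, and their summed level was 0.273 and 0.350 CPM. Of 6 myeloid and 5 hepatocyte markers 0 were measured. Of 5 B cell markers 2 were measured, CD79A with 6007 and 6628 counts and CD79B with 755 and 1065, while PAX5 was at 0, and the list summed to 206 and 150 CPM. Its part in the values above was not tested.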

How the data were processed

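The authors deposited raw read counts per gene symbol, whole numbers with no scaling; HISAT2, featureCounts and the build hg19 are named in the submitters' processing notes, with no roles or versions. Annotation, strand setting and multi-mapping treatment (not given in the sources used here) bear on FTH1, FTL and PCBP2. Library sizes were corrected with TMM factors (edgeR 4.0.16, R 4.3.3). Log2 ratios used an added count of 0.5, with exact Clopper-Pearson intervals for ratios and exact Poisson intervals for levels, both 95% and covering counting error only. A count of 0 allows up to 3 counts. Genes with at least 100 summed counts were measured. Transcript lengths, GC content and hairpins came from GENCODE 29 on GRCh38, another build than that of the counts, with 19065 of 19220 symbols matched. Coordinates refer to GRCh38 only. The length fit used natural splines with 4 degrees of freedom for each covariate.

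The 9 members and the lists were chosen with earlier results of these data known. Named genes were all members, from each list up to 3 highest and 3 lowest past the size rule and the gene with the most counts, 6 genes always included (MYC, HIF1A, ZC3H12A, SLC11A2, SLC40A1, TFR2), and the 4 genes nearest to TFRC. Alternatives were DESeq2 1.42.0 size factors, total counts, upper quartile factors, other count minimums, size limits, intervals and added counts, and the length adjustments. Some genes that the counts include are not reported here by name.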

Additional observations from a re-analysis of the deposited data

How the results depend on the processing

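TFRC stayed past the size rule in all 6 alternatives that recompute its ratio, with log2 ratios from 1.06 (lowess) to 1.31 (total counts). The count of higher members fell from 2 to 1 with upper quartile factors, with a 2-fold limit and with either length adjustment, each time by the loss of IREB2. With the smaller of the alternative size limits 2 members, FTL and PCBP1, were lower in place of 0. For the iron lists, 8 higher and 11 lower became 19 and 26 at that limit, 2 and 1 at 2-fold, 3 and 1 after the adjustment for length and GC content, and 5 and 3 after lowess. For all measured genes, 816 higher and 1076 lower became 2294 and 2416, 128 and 175, and 467 and 399 in the same order, and 522 were lower after lowess. The remaining counts of genes moved by no more than 1.5 times, and no called ratio of a gene named in the report changed sign in any alternative run. Genes that were not called did change sign: FTH1, ACO1 and SLC11A2 with both length adjustments, FTL with lowess and TFR2 with total counts. SLC11A2 was at a log2 ratio of -0.06 with the length and GC fit, and TFR2 at 0.01 with total counts. The cause was not tested. Of the 9 members depth limits STEAP3, at 4 counts a library, most. No paired analysis was possible because each condition has 1 library, and for the same reason no library could be left out.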

Other observations

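Of the 27 genes whose 3' untranslated region matched the hairpin letters and pairing given above, 24 were measured. By the size rule 3 were higher and 0 lower, beside 7.26% higher and 9.57% lower over all measured genes. Their median log2 ratio was 0.16, and 0.06 after adjustment for length and GC content. Among those higher were TFRC, which was selected on its ratio, and VGLL4, a cofactor of TEAD transcription factors, at 1.58-fold (1.44 to 1.74), which was named after its value was seen. Of the 9 genes with such a match in the 5' untranslated region 5 were measured, and 0 were higher or lower. Whether these matches are bound in H9 cells was not measured.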
